A study of Mus musculus with 27 samples.

Results

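The mouse SR proteins and heterogeneous nuclear ribonucleoproteins (hnRNPs) were taken from the gene read-count table as the rows whose symbol is Srsf with a number, Hnrnp with letters or digits, or Tra2a or Tra2b. This gave 33 of the 55416 genes of the table, namely 13 SR and Tra2 proteins and 20 hnRNPs, and all 33 passed the filter on low counts in every comparison. The RNA came from the whole brain of single female fetuses of 3 strains, taken at day (d) 12, d15 or d17 of gestation, and each of the 9 combinations was covered by 3 libraries. C57BL/6J is the long-lived reference strain of the study, AKR/J is a short-lived inbred strain, and B6.Cg-Cav1tm1Mls/J (Cav1-null) is a short-lived congenic strain on the C57BL/6J background that lacks Caveolin-1. The dams were untreated and about 8 weeks old, and the day of the vaginal plug counted as day 1. The labels do not say which fetuses shared a litter, so p-values measure the spread between these fetuses. As in the study, the change from d12 to d15 is called the early phase and the change from d15 to d17 the late phase.

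SR proteins carry a domain rich in arginine and serine, bind exonic enhancers and, as a rule, help the spliceosome to define an exon. The Tra2 proteins are related enhancer-binding factors, while many hnRNPs bind silencers in exons or introns and oppose exon inclusion, package nascent transcripts or stabilize mRNA. Many genes of both families control their own level through alternative exons that bring a stop codon into frame and send the transcript to nonsense-mediated decay.

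Because this self-control acts through single exons, the alternative exons that the junction results turn on are shown here. They were read from the GRCm39 genome, 5′ to 3′ on the strand of the gene, with positions of the mouse GENCODE annotation. In the exons of decay transcripts only the bases up to the stop codon are shown, and capitals mark the stop codon. In the 2 neighbouring Hnrnph1 exons, capitals mark the bases that are left out when the internal splice site of the exon is used.
Hnrnpl, decay exon of 70 bases at chr7:28516760-28516829 (plus strand), bases 1 to 59: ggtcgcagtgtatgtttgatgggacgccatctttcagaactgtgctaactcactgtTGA
Srsf7, decay exon of 107 bases at chr17:80512404-80512510 (minus strand), bases 1 to 28: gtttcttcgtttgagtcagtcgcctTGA
Tra2a, decay exon of 301 bases at chr6:49229742-49230042 (minus strand), bases 1 to 144: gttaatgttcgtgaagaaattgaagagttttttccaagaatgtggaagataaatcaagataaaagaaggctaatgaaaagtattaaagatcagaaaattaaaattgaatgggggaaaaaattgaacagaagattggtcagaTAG
Hnrnpa2b1, coding exon of 36 bases at chr6:51444371-51444406 (minus strand): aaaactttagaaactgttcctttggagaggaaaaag
Hnrnph1, coding exon of 90 bases at chr11:50274658-50274747 (plus strand): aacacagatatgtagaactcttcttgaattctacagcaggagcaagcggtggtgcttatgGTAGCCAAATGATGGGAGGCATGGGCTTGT
Hnrnph1, preceding coding exon of 60 bases at chr11:50274507-50274566 (plus strand): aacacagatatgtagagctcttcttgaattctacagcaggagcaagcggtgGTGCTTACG

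Gene counts summed to 26363697 to 39759702 reads in a library (median 29700746). Cav1 was at 0 to 0.503 CPM (reads relative to the TMM-scaled library size) in Cav1-null libraries and at 9.42 CPM or more in the other strains. The AKR/J d12 libraries stood apart, since 9 erythroid markers summed to 34100 to 201000 CPM there against 564 to 18200 CPM in the other groups, and 7 trophoblast and decidua markers to 33.3 to 730 CPM against 0 to 71.8 CPM. The neuronal list (9 genes, 2030 to 8060 CPM) was present in every library. Proliferation and progenitor markers moved with the days. The 14 genes of dividing cells summed to 1300 to 2990 CPM on d12, 789 to 1340 CPM on d15 and 352 to 632 CPM on d17, and the 6 neural progenitor genes to 814 to 1820, 400 to 1210 and 256 to 597 CPM. No gene of these 3 lists was at 0 reads in a group. The part of these cells in the results below was not tested, and in RNA of the whole brain fewer cells of a type and less RNA per cell cannot be told apart.

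Members differed widely in level. Per kilobase of the longest transcript, the highest were Hnrnpa1 (median of the 27 libraries 379 CPM per kb), Hnrnpa2b1 (294 CPM per kb) and Hnrnph1 (284 CPM per kb). Hnrnpa1 and Hnrnpa2b1 are known to silence exons, and Hnrnph1 binds runs of G. Lowest were Srsf9 (6.76 CPM per kb), Srsf4 (7.24 CPM per kb), Hnrnpf (8.08 CPM per kb) and Srsf12 (9.34 CPM per kb). No member was near the detection limit, since the lowest count was 233 reads, for Srsf12 in AKR/J d12.

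The first comparison asked how these genes changed during development. From d12 to d17 the group mean of 32 of the 33 members was lower in each strain, and the exception was Srsf12 every time. A fall at both steps was seen in the means of 22 members for AKR/J, 25 for C57BL/6J and 32 for the Cav1-null strain. These are orders of means, without a test. In the tests by phase, Srsf12 was called higher in all 6 comparisons and no other member was called higher in any. The number called lower was between 4 of 33 in the AKR/J early phase and 24 of 33 in the Cav1-null late phase. The early and late phases of a strain share their d15 libraries.

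**Figure D1:**
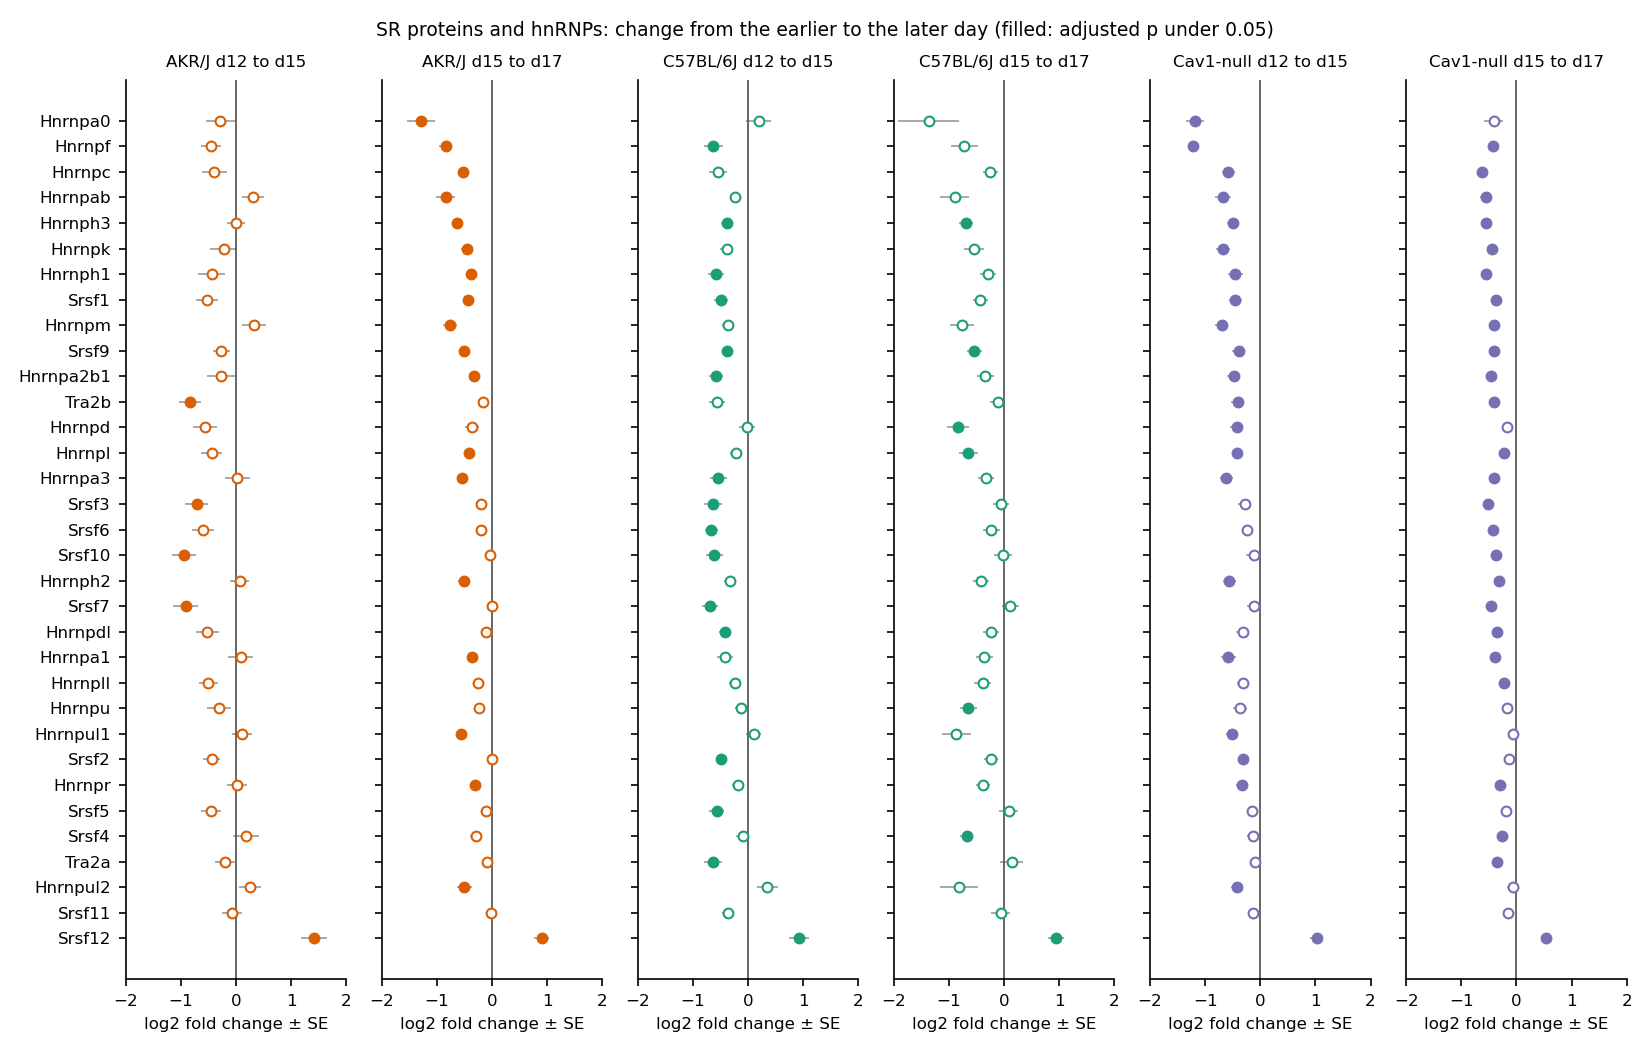
Log2 fold change (later over earlier day) with its standard error (SE) for each of the 33 members (rows, ordered by the mean over the 6 comparisons) in each strain and phase, 6 libraries per comparison; filled points have an adjusted p under 0.05. Points lie mostly left of 0, Srsf12 lies right of 0 in all 6 panels, and 24 points are filled on the left in the Cav1-null late phase.

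In the AKR/J early phase, 4 SR members were lower on d15 (Srsf10, Srsf7, Tra2b and Srsf3, with log2 fold changes of -0.94, -0.91, -0.83 and -0.71) and none of the 20 hnRNPs was called (5 had an unadjusted p under 0.05). Among all 19935 genes tested, 14% were called lower and 14.8% higher, against which 4 of 33 members were lower and 1 of 33 higher. An unadjusted p under 0.05 was found for 8225 of the 19935 genes. Markers of dividing cells were lower for 12 of 14, those of neural progenitors for 3 of 6 and erythroid ones for 8 of 9, yolk sac ones for 4 of 5 and trophoblast and decidua ones for 3 of the 3 tested, while neuronal markers were higher for 7 of 9. The median log2 fold change of the members was -0.28 against 0.02 for all genes. This comparison rests on the AKR/J d12 libraries with erythroid RNA, and leaving the erythroid genes out of the library sizes gave 4 lower members again. The count was 17 without d12 replicate 2, 1 without d12 replicate 1 or 3, and 0 without any 1 of the d15 libraries.

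In the AKR/J late phase, 16 of the 20 hnRNPs and 2 of the 13 SR members (Srsf1 and Srsf9) were lower on d17. Background calls were 10.4% lower and 11.6% higher of 19989 genes, and the median was -0.36 for the members and -0.01 for all genes. By family the median was -0.48 for the hnRNPs and -0.10 for the SR and Tra2 members. Dividing-cell genes were lower for 14 of 14 and neural progenitor genes for 6 of 6 in the same comparison, neuronal genes were higher for 2 of 9, and erythroid genes were higher for 5 and lower for 3 of 9. Without d17 replicate 2 the count of lower members was 6, and without d17 replicate 3 it was 9.

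In the C57BL/6J early phase, 9 of 13 SR members and 6 of 20 hnRNPs were lower on d15. Of all 19154 genes, 7.8% were called lower and 7.08% higher. The SR members had a median of -0.56, led by Srsf7 (-0.69), which binds exonic enhancers and shuttles with mRNA, and Srsf6 (-0.67). The hnRNPs had a median of -0.35, and all genes one of -0.04. No member, Srsf12 included, was called when d12 replicate 1 or any 1 of the d15 libraries was dropped, and without d12 replicate 2 there were 3 higher members. Dividing-cell genes were lower for 13 of 14, neural progenitor and erythroid genes for 3 of 6 and 3 of 9, and neuronal genes were higher for 3 of 9.

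In the C57BL/6J late phase, 4 hnRNPs (Hnrnph3, Hnrnpd, Hnrnpl and Hnrnpu) and 2 SR members (Srsf4 and Srsf9) were lower on d17, where the background was 5.58% lower and 7.46% higher of 19888 genes. The median of the hnRNPs was -0.60, that of the SR and Tra2 members -0.06 and that of all genes 0.03. Spread between the d17 libraries was wide for several hnRNPs, as the values of Hnrnpa0 below show. The count of lower members was 17 when d17 replicate 1 was left out, 10 when it was d17 replicate 2, and 0 for d17 replicate 3 or any 1 of the d15 libraries. Srsf12 was not called without d15 replicate 1, d15 replicate 2 or d17 replicate 3. Dividing-cell genes were lower for 13 of 14 in this comparison and neural progenitor genes for 4 of 6. Neuronal genes were higher for 2 of 9, although 7 of 9 were below 0 (median -0.18), and erythroid genes were higher for 6 and lower for 3 of 9.

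In the Cav1-null early phase, 17 of 20 hnRNPs and 4 of 13 SR members were lower on d15, against 11.8% of 19934 genes lower and 11.6% higher. The hnRNP median was -0.51, the SR median -0.15 and the median of all genes -0.01. The count was 10 without d12 replicate 1, 8 without d15 replicate 1 and 7 without d15 replicate 2 or 3.

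In the Cav1-null late phase, 15 hnRNPs and 9 SR members were lower on d17, with 12.8% of 20245 genes lower and 14.5% higher. Both families had similar medians here, -0.39 for the hnRNPs and -0.37 for the SR and Tra2 members, and the median of all genes was 0. Leaving out any 1 library gave 20 to 23 lower members, but 1 model of all 27 libraries called 7 lower and 0 higher. In both phases of this strain all 14 dividing-cell genes were lower, and the neural progenitor genes were lower for 5 of 6. Neuronal genes were higher for 5 of 9 in the early phase, and for 4 of 9 in the late phase with 1 lower. Erythroid genes were higher for 4 and lower for 3 of 9 in the early phase, and in the late phase 6 of 9 were lower with all 9 below 0 (median -1.55).

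Across the 6 comparisons, Hnrnph3 (an hnRNP of the H/F type) and Srsf9 were called lower in 5. Srsf9, which shares 46.3% of its exon bases with Gatc on the opposite strand, had log2 fold changes of -0.26, -0.51, -0.39, -0.54, -0.39 and -0.40, in the order of the panels from AKR/J early to Cav1-null late. Another 6 members were called in 4 comparisons, among them Srsf1, the founding SR protein, and Hnrnpl, which binds CA repeats. Srsf11 was called in none, with log2 fold changes from -0.36 to -0.01.

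The member that rose was Srsf12 (chr4:33208971-33234051, plus strand), a divergent SR-like protein related to Srsf10 and described as an antagonist of other SR proteins. In AKR/J its level was 16.1, 9.38 and 12.1 CPM on d12, 33.6, 30.3 and 39.3 CPM on d15, and 52.9, 64.2 and 68.9 CPM on d17. C57BL/6J had 19.2, 20.8 and 12.7 CPM, then 31.8, 34.4 and 35.6 CPM, then 54, 71.2 and 63.6 CPM. Cav1-null libraries had 23.1, 23.9 and 28.9 CPM, then 49.9, 49.1 and 53 CPM, then 74.5, 70.6 and 72.3 CPM. In each strain the 3 days did not overlap. The early call in C57BL/6J was lost without d12 replicate 1 (adjusted p = 0.066) or without d15 replicate 1, 2 or 3 (adjusted p = 0.0874, 0.106 and 0.131). With all libraries, the early rise was 1.42 ± 0.24 (log2, ± SE) in AKR/J (edgeR quasi-likelihood test, adjusted p = 0.00463), 0.92 ± 0.18 in C57BL/6J (adjusted p = 0.0275) and 1.02 ± 0.12 in Cav1-null mice (adjusted p = 0.00104). The late rise was 0.90 ± 0.13 (adjusted p = 0.00267), 0.94 ± 0.15 (adjusted p = 0.0108) and 0.54 ± 0.07 (adjusted p = 0.000147). The last of these was not called in 1 model of all 27 libraries (0.54, adjusted p = 0.114). No other annotated gene overlaps its exons. With the trend with GC content and length removed, all 6 calls were made again, between 0.64 and 1.61.

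**Figure D2:**
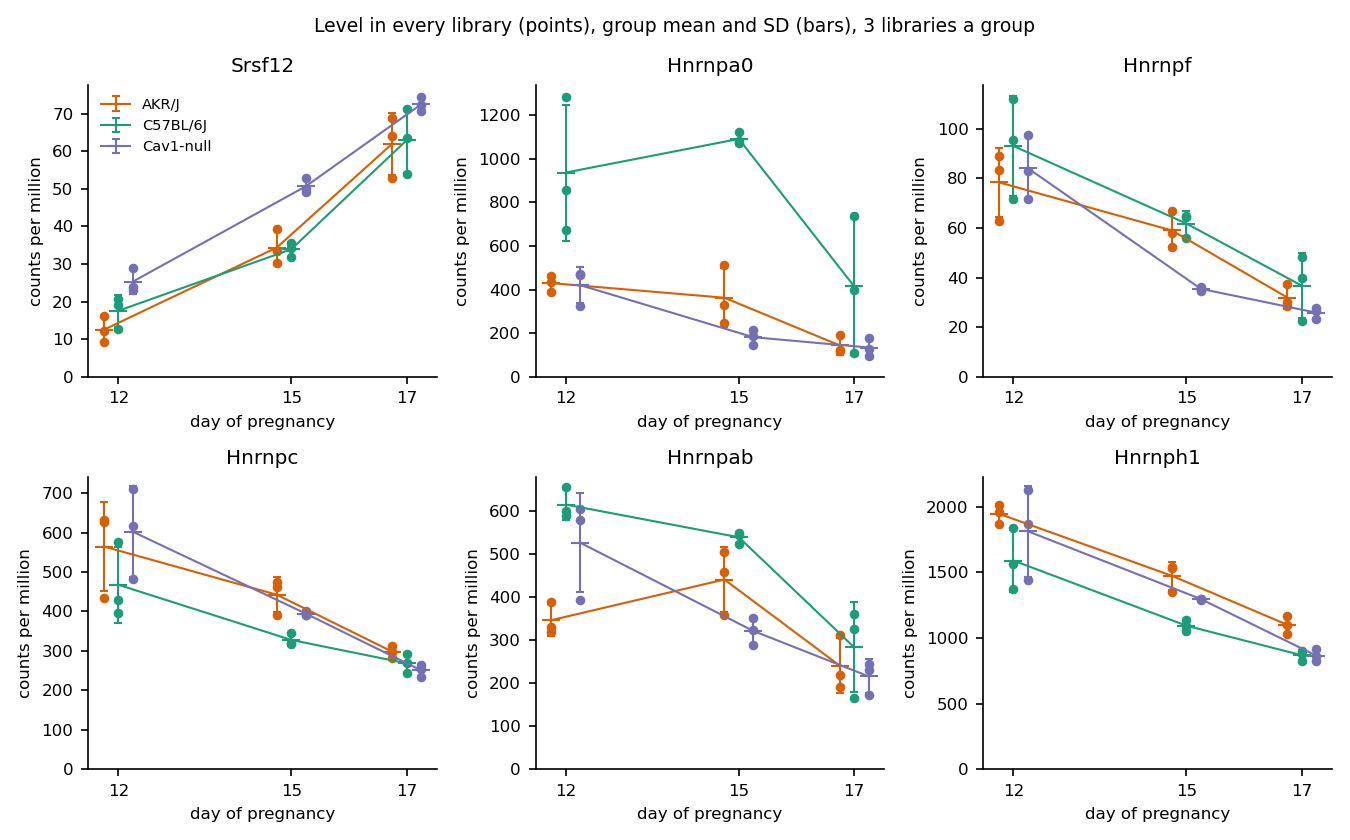
Level in CPM on each day for Srsf12, the 4 members with the largest mean fall and Hnrnph1; points are libraries, bars the mean and SD of 3 libraries, and colours the strains. Srsf12 climbs to 52.9 to 74.5 CPM on d17 in all strains, while Hnrnpa0 spans 110 to 738 CPM in C57BL/6J on d17.

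Hnrnpa0 (chr13:58273693-58276370, minus strand), a gene of 1 exon whose product binds AU-rich elements, differed between strains as well as days. AKR/J libraries had 435, 390 and 463 CPM on d12, 329, 246 and 512 CPM on d15, and 193, 117 and 122 CPM on d17. In C57BL/6J it was at 855, 1280 and 673 CPM, then 1070, 1120 and 1080 CPM, then 738, 110 and 396 CPM. Cav1-null libraries had 466, 470 and 324 CPM, then 214, 187 and 144 CPM, then 97, 178 and 128 CPM. The low d17 library of C57BL/6J, replicate 2, lay within the range of Cav1-null d17 and below that of AKR/J d17, and the other 2 lay above both. A fall was called in the AKR/J late phase (-1.29 ± 0.26, edgeR adjusted p = 0.0106) and in the Cav1-null early phase (-1.18 ± 0.16, adjusted p = 0.00171). Without AKR/J d17 replicate 2 or 3 the first of these had adjusted p-values of 0.0675 and 0.0615. In C57BL/6J the early value was 0.19 ± 0.22 (adjusted p = 0.564), and without d12 replicate 2 a rise was called (0.47, adjusted p = 0.0341). The late value of C57BL/6J was -1.37 ± 0.55 (adjusted p = 0.132), which was called without d17 replicate 1 (-2.06, adjusted p = 0.0177), by DESeq2 (adjusted p = 0.0219) and in 1 model of all 27 libraries (adjusted p = 0.013). That of Cav1-null mice was -0.41 ± 0.17 (adjusted p = 0.0962), which was called without d15 replicate 3 (adjusted p = 0.0395) or d17 replicate 2 (adjusted p = 0.00607). Of 6 other settings, 4 left this value uncalled, and those that called it included no filter on low counts (adjusted p = 1.03e-05).

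Hnrnpf (chr6:117877257-117905485, plus strand), which binds runs of G and often promotes exon inclusion, had a fall called in 4 comparisons. Its AKR/J libraries had 89, 62.7 and 83.4 CPM on d12, 57.8, 52.2 and 66.9 CPM on d15, and 37.4, 30.1 and 28.4 CPM on d17. For C57BL/6J the values were 71.7, 95.3 and 112 CPM, then 64.9, 64.4 and 56 CPM, then 48.1, 22.3 and 39.8 CPM. For Cav1-null mice they were 83.1, 97.4 and 71.8 CPM, then 35.5, 36.3 and 34.6 CPM, then 23.4, 27.7 and 26.5 CPM. The d17 libraries lay below the d12 and d15 libraries in every strain. The largest step was the Cav1-null early phase (-1.22 ± 0.10, edgeR adjusted p = 0.000217), and the late steps of AKR/J (-0.84 ± 0.12, adjusted p = 0.00242) and of the Cav1-null strain (-0.43 ± 0.09, adjusted p = 0.00246) were also called, the last of them not in 1 model of all 27 libraries (adjusted p = 0.245). The early call in C57BL/6J (-0.63 ± 0.17, adjusted p = 0.0485) was lost without any 1 of its 6 libraries, where adjusted p was between 0.0516 and 0.19. It was kept in 4 of 6 other settings. The late value of C57BL/6J was -0.72 ± 0.25 (adjusted p = 0.0911) and was called without d17 replicate 1 (adjusted p = 0.0196) or 2 (adjusted p = 0.0493), by DESeq2 (adjusted p = 0.0398) and in 1 model of all 27 libraries (adjusted p = 0.00641). The early value of AKR/J was -0.45 ± 0.18 (adjusted p = 0.102) and was called without d12 replicate 2 (adjusted p = 0.00412). Of 7 other settings, 6 left that early value uncalled.

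Hnrnpc (chr14:52310561-52341614, minus strand), which forms tetramers that bind runs of U on nascent transcripts, was at 632, 435 and 627 CPM on d12, 461, 392 and 474 CPM on d15 and 313, 298 and 283 CPM on d17 in AKR/J. In C57BL/6J it was at 396, 430 and 577 CPM, then 318, 345 and 320 CPM, then 269, 243 and 293 CPM. The Cav1-null libraries had 616, 710 and 481 CPM, then 401, 392 and 391 CPM, then 233, 254 and 265 CPM. Only AKR/J d12 and d15 overlapped among the neighbouring days of a strain. Falls were called in the AKR/J late phase (-0.53 ± 0.08, edgeR adjusted p = 0.00385) and in the early (-0.58 ± 0.12, adjusted p = 0.00874) and late (-0.63 ± 0.07, adjusted p = 3.13e-05) phases of Cav1-null mice. Without Cav1-null d15 replicate 2, the early value had an adjusted p of 0.0521. The early value of C57BL/6J was -0.55 ± 0.16 (adjusted p = 0.0573), and it was called without d12 replicate 2 or 3, by DESeq2 (adjusted p = 0.0248) and in 1 model of all 27 libraries (adjusted p = 0.0252). In AKR/J the early value was -0.39 ± 0.23 (adjusted p = 0.235), and without d12 replicate 2 it was called as well.

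Hnrnpab (chr11:51487363-51510327, minus strand), an A/B-type hnRNP with a role in RNA transport in neurons, shares 35.5% of its exon bases with Phykpl on the opposite strand. Its AKR/J levels were 319, 330 and 388 CPM on d12, 458, 358 and 504 CPM on d15 and 312, 218 and 190 CPM on d17. The C57BL/6J libraries had 600, 654 and 588 CPM, then 547, 544 and 523 CPM, then 360, 164 and 324 CPM. Cav1-null mice had 604, 579 and 393 CPM, then 351, 323 and 288 CPM, then 171, 230 and 245 CPM. All libraries of d17 lay below those of d15 in each strain, whereas d12 and d15 of AKR/J overlapped. A fall was called in the AKR/J late phase (-0.84 ± 0.17, edgeR adjusted p = 0.0124) and in the early (-0.68 ± 0.14, adjusted p = 0.00983) and late (-0.55 ± 0.11, adjusted p = 0.00242) phases of Cav1-null mice. The first of these was not called without AKR/J d17 replicate 2 (adjusted p = 0.0764) or 3 (adjusted p = 0.0546), nor the second without Cav1-null d15 replicate 3 (adjusted p = 0.0575). The late value of C57BL/6J was -0.90 ± 0.27 (adjusted p = 0.0659), and it was called without d17 replicate 1 (-1.09, adjusted p = 0.0193) or d17 replicate 2 (-0.64, adjusted p = 0.021). It was also called by DESeq2 (adjusted p = 0.00868), with no filter on low counts (adjusted p = 0.0352), in 1 model of all 27 libraries (adjusted p = 0.00295) and with the offset (-0.72, adjusted p = 0.0398), while the Cav1-null late call was lost in the model of all 27 libraries (adjusted p = 0.159).

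Whether these changes differed between a short-lived strain and C57BL/6J was tested by the interaction of strain and day over 12 libraries. The edgeR quasi-likelihood test called 0 of 33 members in each of the 4 interactions, where the background was 0.0711% and 0.00468% of genes for the early and late phases of AKR/J, and 0.00472% and 0.252% for those of Cav1-null mice. At an unadjusted p under 0.05 the members numbered 2 and 3 for AKR/J and 9 and 12 for Cav1-null mice, and the DESeq2 Wald test called 0, 0, 1 and 4. Over the 4 interactions, the lowest adjusted p of a member was that of Srsf7 in the Cav1-null late phase (difference of log2 fold changes -0.60 ± 0.17, adjusted p = 0.0888), and in the Cav1-null early phase it was that of Hnrnpa0 (-1.40 ± 0.31, adjusted p = 0.169). The Cav1-null late interaction moved with GC content (Spearman's rho 0.45 across genes, a description). With the offset for GC content and length it had 6 members with an unadjusted p under 0.05, the median of the SR and Tra2 members went from -0.29 to 0.01, and Srsf7 was at -0.22 ± 0.11 (adjusted p = 0.306). At that unadjusted limit stood 4082 of 21278 genes. In the Cav1-null early phase the members with the offset numbered 10, against 3430 of 21056 genes. For the early and late phases of AKR/J they numbered 6 and 1, against 3850 of 20956 and 1426 of 21227 genes. Leaving out C57BL/6J d17 replicate 1 gave 12 calls in the Cav1-null late phase and 1 in that of AKR/J, leaving out C57BL/6J d12 replicate 2 gave 5 in the Cav1-null early phase, and leaving out AKR/J d12 replicate 2 gave 1 in the AKR/J early phase.

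The second comparison asked how far the short-lived strains differed from C57BL/6J on each day. The AKR/J and Cav1-null comparisons share the C57BL/6J libraries. On d12, AKR/J had 7 members called (3 higher and 4 lower, edgeR quasi-likelihood test) where 28.6% of all genes were called. On d15 it had 21 (15 higher and 6 lower) where 41.1% were called. The Cav1-null strain had 28 on d15 (12 higher and 16 lower), with a background of 58.6%. In 3 comparisons no member was called. These were AKR/J d17 (background 0.742%, 7 members with an unadjusted p under 0.05, 0 by DESeq2), Cav1-null d12 (background 0%, 9 members with an unadjusted p under 0.05, 3 by DESeq2) and Cav1-null d17 (background 0.0491%, 1 member with an unadjusted p under 0.05, 0 by DESeq2). With the offset described below, the members at that unadjusted limit numbered 5, 11 and 2. All genes then numbered 4223 of 20088, 2561 of 19370 and 1355 of 20226. The AKR/J d12 count was 0 without AKR/J d12 replicate 1 or 3 or C57BL/6J d12 replicate 1 or 2, and 4 without C57BL/6J d12 replicate 3. Leaving out C57BL/6J d17 replicate 2 gave 13 members on d17 for AKR/J and 7 for Cav1-null mice, and leaving out C57BL/6J d12 replicate 3 gave 1 for Cav1-null d12.

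Cell markers differed in the same strain comparisons, and their part in the members' values was not tested. In AKR/J d12, whose libraries held the erythroid RNA, erythroid genes were higher for 8 of 9 (median 3.95), yolk sac genes for 4 of 5 (median 8.38) and trophoblast and decidua genes for 1 of the 3 tested, and neuronal genes were lower for 5 of 9 (median -1.56). In AKR/J d15 erythroid genes were higher for 7 of 9, neuronal genes lower for 5 of 9, and dividing-cell genes higher for 6 and lower for 4 of 14. Cav1-null d15 had dividing-cell genes lower for 10 and higher for 2 of 14, neural progenitor genes lower for 6 of 6, neuronal genes lower for 6 and higher for 3 of 9, and erythroid genes higher for 6 of 9.

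On d15 in AKR/J, 8 of 13 SR and Tra2 members were higher and 1 lower, and 7 of 20 hnRNPs were higher and 5 lower. Among Cav1-null mice, 9 of 13 SR and Tra2 members were higher and 3 lower, with a median of 0.40, and 3 of 20 hnRNPs were higher and 13 lower, with a median of -0.25. In AKR/J the medians on d15 were 0.33 and 0.01. With the offset for GC content and length described below, the SR and Tra2 members had 0 higher and 1 lower in AKR/J (median 0.02, 4 with an unadjusted p under 0.05, as had 8033 of 19583 genes) and 3 higher and 5 lower in Cav1-null mice (median 0.05), so the excess of higher SR members was not kept. The hnRNPs then had 3 higher and 7 lower (median -0.11) and 2 higher and 18 lower (median -0.49). Tra2a, an enhancer-binding factor, was higher by 0.76 ± 0.07 in Cav1-null mice (edgeR adjusted p = 4.19e-06) and by 0.43 ± 0.07 in AKR/J (adjusted p = 0.00323). Srsf7 was higher by 0.73 ± 0.06 (adjusted p = 2.61e-06) and by 0.51 ± 0.08 (adjusted p = 0.00214). Among the lower hnRNPs on d15, Hnrnpa0 differed most (-2.55 ± 0.12 in Cav1-null mice, adjusted p = 6.94e-08, and -1.56 ± 0.22 in AKR/J, adjusted p = 0.0013). It was followed by Hnrnpul2 (-1.48 ± 0.08 and -1.05 ± 0.14), a member of the Hnrnpu family. The relative Hnrnpul1 had -1.14 ± 0.05 and -0.66 ± 0.08, and Hnrnpd, which binds AU-rich elements and speeds mRNA decay, had -1.09 ± 0.06 and -0.77 ± 0.12.

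These strain differences moved with the GC content of the genes. Over 11013 to 11429 genes with a mean log2 CPM of at least 3, Spearman's rho between the strain difference and GC content was -0.44 to -0.64 in the 6 comparisons, given as a description since genes share their libraries. On d15 the median difference was 0.35 in the lowest and -0.67 in the highest quartile of GC content for Cav1-null mice, and 0.31 and -0.48 for AKR/J. The libraries of C57BL/6J d15 had slopes of 0.45 to 0.49 (log2 CPM relative to the mean of the 27 libraries, per 10 points of GC content), those of AKR/J d15 -0.07 to 0.03 and those of Cav1-null d15 -0.29 to -0.09. Within C57BL/6J d17, replicate 1 had 0.50, replicate 2 had -0.13 and replicate 3 had 0.16. The longest transcripts of the members have 37.1% to 55.4% GC with a median of 42.2%, which is below the lower quartile of these genes (44.6% on d15), and Hnrnpa0 has the highest and Hnrnph1 the lowest value.

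With an offset for GC content and length, chosen after seeing the data, AKR/J d15 had 3 higher and 8 lower members, of which 9 had the same call without the offset. Among all 19583 genes tested there with the offset, 3008 were higher and 2673 lower. Cav1-null d15 had 5 higher and 23 lower members, of which 18 had the same call, where 5108 of 19708 genes were higher and 4647 lower. There, 5 members turned from higher to lower, namely Hnrnph1, Srsf6, Srsf5, Tra2b and Hnrnpc. The difference of Srsf7 on d15 was 0.13 in Cav1-null mice (adjusted p = 0.0689) and 0.05 in AKR/J (adjusted p = 0.668) with the offset. Tra2a was called in Cav1-null mice only (0.58, and 0.22 in AKR/J), as was Srsf12 (0.45, after 0.62 without the offset). Hnrnpa0 was still lower in Cav1-null d15 (-2.13 ± 0.09, adjusted p = 1.02e-07), AKR/J d15 (-1.28 ± 0.20, adjusted p = 0.00424) and AKR/J d12 (-0.81 ± 0.21, adjusted p = 0.0366). Hnrnpul2, Hnrnpul1 and Hnrnpd were also still lower on d15 in both strains (-0.99, -0.58 and -1.17 in Cav1-null mice, and -0.69, -0.26 and -0.85 in AKR/J). On d12, AKR/J had 1 higher and 6 lower members with the offset, where 1612 of 19219 genes were higher and 1829 lower. Hnrnpa0 and Hnrnpm had the same call there as before.

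**Figure D3:**
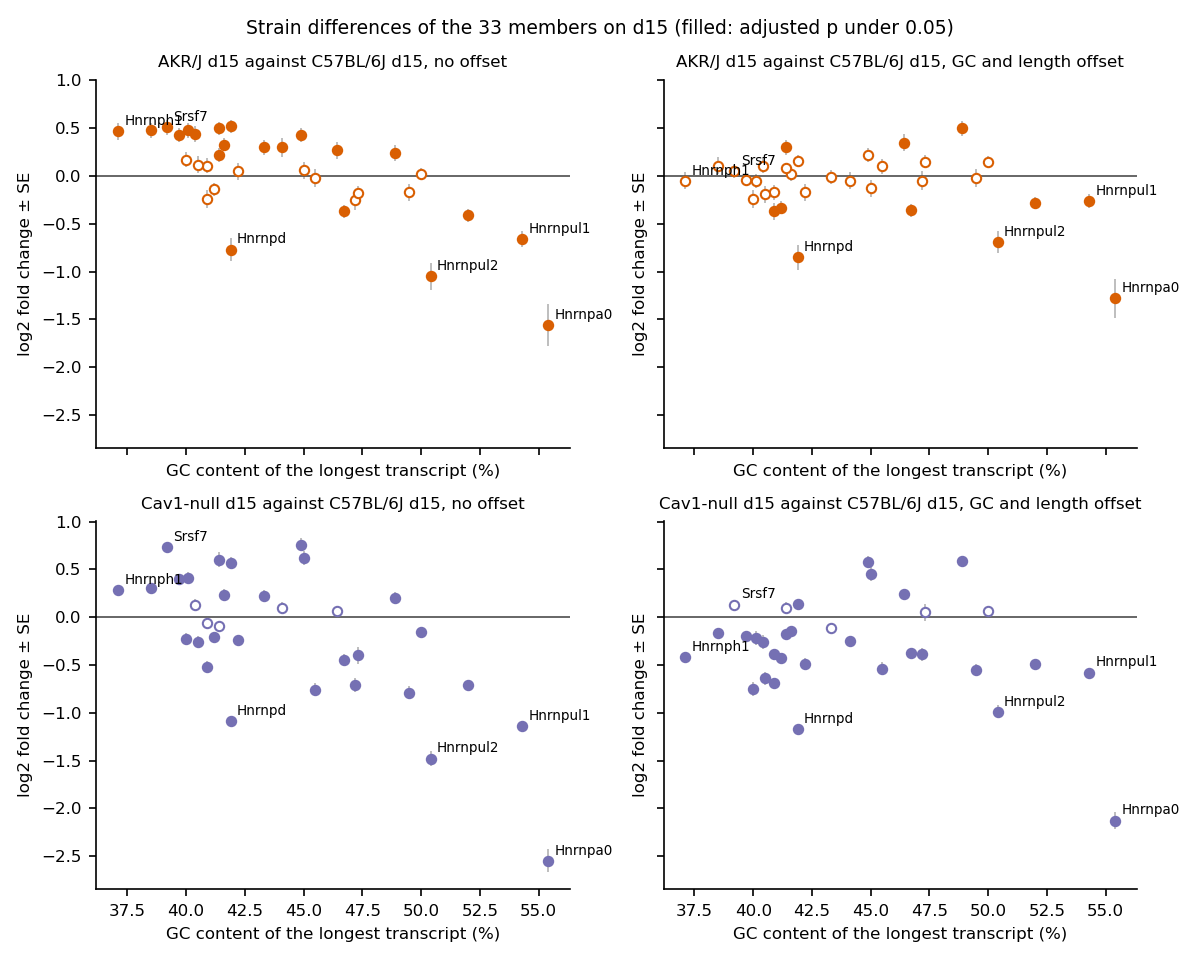
Difference from C57BL/6J on d15 (log2 fold change ± SE, y axis) against the GC content of the longest transcript (x axis, in percent) for the 33 members, for AKR/J (top) and Cav1-null mice (bottom), without (left) and with (right) an offset for GC content and length; filled points have an adjusted p under 0.05. On the left the points fall from low to high GC content, on the right this slope is weaker, and Hnrnpa0 is the lowest point in all 4 panels.

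For the changes between days the trend with GC content was weaker (Spearman's rho from -0.32 to 0.23). With the offset the count of lower members was 9 and 23 in the early and late phases of AKR/J, 15 and 14 in those of C57BL/6J, and 24 and 25 in those of the Cav1-null strain. Of all genes tested with the offset, 2596 of 19828 and 2234 of 19880 were lower in AKR/J. Lower genes numbered 1813 of 19051 and 1522 of 19774 in C57BL/6J, and 2454 of 19816 and 2811 of 20116 in the Cav1-null strain. By family, 5 and 5 SR and Tra2 members were lower in the early and late phases of AKR/J (medians -0.35 and -0.23). They numbered 8 and 3 in C57BL/6J (-0.36 and -0.22) and 5 and 9 in Cav1-null mice (-0.16 and -0.26). Lower hnRNPs numbered 4 and 18 in AKR/J (medians -0.1 and -0.57), 7 and 11 in C57BL/6J (-0.25 and -0.62) and 19 and 16 in Cav1-null mice (-0.54 and -0.37). Srsf12 was again higher in each of these comparisons, and in the AKR/J early phase Hnrnph2 was higher too.

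Other genes of the same machinery were counted from fixed lists, adjusted over all genes. Of 35 core snRNP proteins, the subunits of the spliceosome itself, 13, 17 and 15 were lower in the early phase for AKR/J, C57BL/6J and the Cav1-null strain, and 13, 2 and 19 in the late phase. At most 2 of them were higher in any comparison. Snrpe fell in the AKR/J early phase (-3.35 ± 0.50, edgeR adjusted p = 0.00334) and in that of C57BL/6J (-1.04 ± 0.19, adjusted p = 0.0237). Snrpn, an imprinted snRNP gene of neurons, rose in both phases of Cav1-null mice (0.58 ± 0.09 and 0.22 ± 0.07) and in the AKR/J late phase (0.63 ± 0.10) and that of C57BL/6J (0.56 ± 0.14). Of 20 other hnRNP-type proteins, 0, 2 and 10 were lower in the early and 10, 3 and 11 in the late phase, while Ralyl, a relative of the hnRNP C family, was the 1 called higher in each comparison (0.37 to 1.06). Msi1, a marker of neural progenitors, had the largest fall of that list in the late phase of each strain (-0.90, -1.38 and -0.50). Of 14 genes of nonsense-mediated decay, 1, 2 and 4 were lower in the early and 4, 0 and 6 in the late phase, among them Magoh of the exon junction complex in the AKR/J early phase (-2.72 ± 0.44). In the decay list Smg1 was higher in the AKR/J late and the Cav1-null early phase (0.29 in both). The list of 12 SR kinases, phosphatases and import factors had 0 to 4 lower genes per comparison, with 2 higher against 1 lower in the AKR/J early phase (Tnpo3 0.72 among the higher) and 1 higher in the AKR/J late phase. Clk1, a kinase of SR proteins, was the lower gene of the early phase (-0.82 ± 0.19, edgeR adjusted p = 0.0162) and the higher one of the late phase (0.29 ± 0.09, adjusted p = 0.0454). That of 23 other SR-related and U2AF factors had 0 to 5 lower genes, and 1 higher in the Cav1-null early phase. This was Srrm4, a neuronal splicing activator (0.53 ± 0.16, edgeR adjusted p = 0.0423), which was lower in the C57BL/6J late phase (-0.77 ± 0.17, adjusted p = 0.0264). The shares of all genes called in each comparison are those given above for the members.

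The third question was whether the transcripts of these genes were spliced differently. The splice-junction table held 217 junctions of 31 members and none of Hnrnpa0 or Hnrnph2. Of these, 155 are annotated in coding transcripts, 33 in decay or retained-intron transcripts alone and 29 in none, and 19 are also listed under another gene. Removed reads can also give a count of 0 here: 96 of the 217 had 0 reads in at least 1 library and 100 or more in another, and 58 had reads in all 27 libraries. Relative use of each junction against the others of its gene was tested with edgeR's diffSpliceDGE. In the early phase 0, 1 and 0 member junctions were called in AKR/J, C57BL/6J and the Cav1-null strain, where 0.528%, 0.325% and 0.31% of all junctions were called. In the late phase 0 were called in each strain, with backgrounds of 0.311%, 0.32% and 0.182%. At an unadjusted p under 0.05 there were 1, 3 and 2 member junctions in the early and 1, 1 and 1 in the late phase. Each comparison tested 132 to 144 member junctions, of 26 or 27 members. Of all junctions tested, 0.57% to 1.91% had an unadjusted p under 0.05, which is fewer than a test gives where nothing changes. The test was therefore conservative here, and few calls do not show that splicing was unchanged.

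The called junction, of Hnrnpc at chr14:52318765-52319284, was listed at 0 in all 3 libraries of C57BL/6J d12 and at 848, 801 and 753 reads on d15 (adjusted p = 0.0154). Outside these groups it had 571 to 1235 reads in 6 libraries and 0 in the other 15, with both kinds in 5 of the other 7 groups. Since Hnrnpc itself was at 396 to 577 CPM in C57BL/6J d12, a 0 here does not show that the splice was absent.

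When at least 20 reads were required in every library, 2 of 56 member junctions were called in the AKR/J early phase, where 0.439% of 10934 junctions were called, and 0 in the other 5 comparisons. One, listed under Hnrnpu at chr1:178149425-178149506, is not annotated for Hnrnpu and is also listed under another gene, in a region where Cox20 lies on the opposite strand, so it may not be a splice of Hnrnpu. The other belongs to Hnrnph1 and was looked at further after its values were seen. This junction, chr11:50274718-50275470, leaves the last 30 bases out of the 90-base exon shown above. Its reads were 149, 178 and 148 on d12, 121, 73 and 79 on d15 and 42, 44 and 36 on d17 in AKR/J. C57BL/6J had 120, 122 and 182, then 97, 75 and 66, then 25, 33 and 52 reads, and Cav1-null mice had 125, 192 and 147, then 60, 46 and 50, then 25, 27 and 30 reads. In each strain these reads did not overlap between days, but they also follow the level of the gene and the depth. No junction from the end of the full 90-base exon was listed, so use of the internal site against the full exon was not measured. Per 1000 reads of Hnrnph1 the mean went from 3.40 ± 0.361 to 1.94 ± 0.483 and 1.25 ± 0.157 in AKR/J (SD, n = 3), from 2.80 ± 0.368 to 2.05 ± 0.309 and 1.33 ± 0.451 in C57BL/6J, and from 2.61 ± 0.243 to 1.35 ± 0.247 and 1.02 ± 0.048 in Cav1-null mice. On this measure d15 and d17 overlapped in C57BL/6J (1.83 to 2.4 and 1.04 to 1.85), and no other neighbouring days of a strain did.

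With this filter its relative use fell by 1.58 on the log2 scale in the AKR/J early phase (adjusted p = 0.00185). The values that did not pass were -0.64 in the Cav1-null early phase (adjusted p = 0.41), and -0.50 and -0.44 in the late phases of AKR/J and the Cav1-null strain (adjusted p = 1 for both). In C57BL/6J no other Hnrnph1 junction passed the filter, so its relative use had no value there, and in the AKR/J early phase it was compared with 1 other junction. Without the filter it was called in no comparison, with an adjusted p of 1 and an unadjusted p of 0.278 or more in all 6. As a share of the reads that enter the exon, it went from 7.3% to 3.48% and 2.9% in AKR/J, from 5.09% to 3.93% and 2.36% in C57BL/6J, and from 5.07% to 3.14% and 2.29% in Cav1-null mice, over 2 or 3 libraries per group with reads on both junctions. Here d15 and d17 of AKR/J overlapped (3.41% to 3.54% and 2.51% to 3.53%). The preceding exon equals the 90-base exon at 58 of its 60 bases, so reads could be placed on either copy, and how this touched the counts was not tested.

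**Figure D4:**
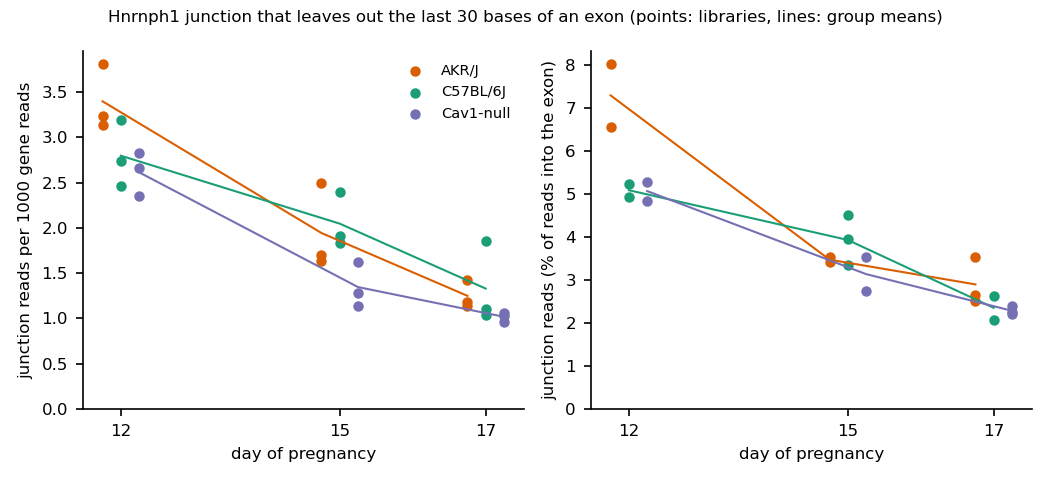
Reads on the Hnrnph1 junction that leaves out the last 30 bases of an exon, by day, per 1000 reads of the gene (left) and as a percentage of the reads that enter the exon (right); points are libraries, lines join group means and colours mark strains. The means fall from d12 to d17 in all 3 strains in both panels, from 3.40 to 1.25 per 1000 reads in AKR/J.

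The share of transcripts that include an alternative exon was computed from the mean of the 2 inclusion junctions and the skipping junction, in libraries with reads on all 3, and is described without a test. Transcripts with a decay exon can be removed by nonsense-mediated decay. Their percentages therefore describe the RNA present, not how often the exon was spliced in. Hnrnpl included its decay exon in 1.62% to 11.3% of transcripts over 26 libraries. The groups ranged from 1.81% ± 0.165 (SD, n = 3) in C57BL/6J d15 to 8.84% ± 0.205 (n = 2) in AKR/J d12. The libraries of C57BL/6J d15 overlapped those of C57BL/6J d17 (1.76% to 8.28%), and AKR/J d17 (3.93% to 11.3%) spanned both other days of its strain. The decay exon of Srsf7 has a form of 107 bases and a longer one, chr17:80512051-80512510, which share the skipping junction and 1 of the 2 inclusion junctions. The shared inclusion junction had 23 to 76 reads in a library, against 0 to 16 for the junction of the 107-base form alone and 7 to 43 for that of the longer form alone. The percentage computed for each form therefore also counts reads of the other, and neither is the share of that form by itself. They were 3.05% to 7.24% over 24 libraries with the junctions of the 107-base form and 3.26% to 10.1% over 25 libraries with those of the longer one. With the junctions of the longer form the days of AKR/J overlapped, and with those of the 107-base form d17 overlapped the other days in C57BL/6J and Cav1-null mice, so no order of the days was drawn.

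For Tra2a, the decay exon was included in 9.15% to 12.5% of transcripts in the 3 libraries of Cav1-null d17 and in 2.71% to 7.92% of the other 20 libraries with a value, so this group did not overlap the rest. The 36-base exon of Hnrnpa2b1, which sets the B1 form of the protein apart from the A2 form, had a value in 10 libraries. These were 9.83% and 9.55% in AKR/J d12, 7.56% and 8.72% in C57BL/6J d12 and 7.31% in Cav1-null d12. On d15 the values were 7.85% for C57BL/6J and 5.81% for the Cav1-null strain, and on d17 6.85% in C57BL/6J and 5.46% and 5.45% in Cav1-null mice. AKR/J had no value on d15 or d17, and with 1 or 2 libraries per day the other strains allow no order of the days. An alternative exon of 105 bases at the 3′ end of Hnrnpdl was included in 20.3% to 34% over 23 libraries, with the highest group mean in Cav1-null d15 (32.7% ± 1.16, n = 3) and the lowest in Cav1-null d12 (22.2% ± 1.63, n = 2).

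**Figure D5:**
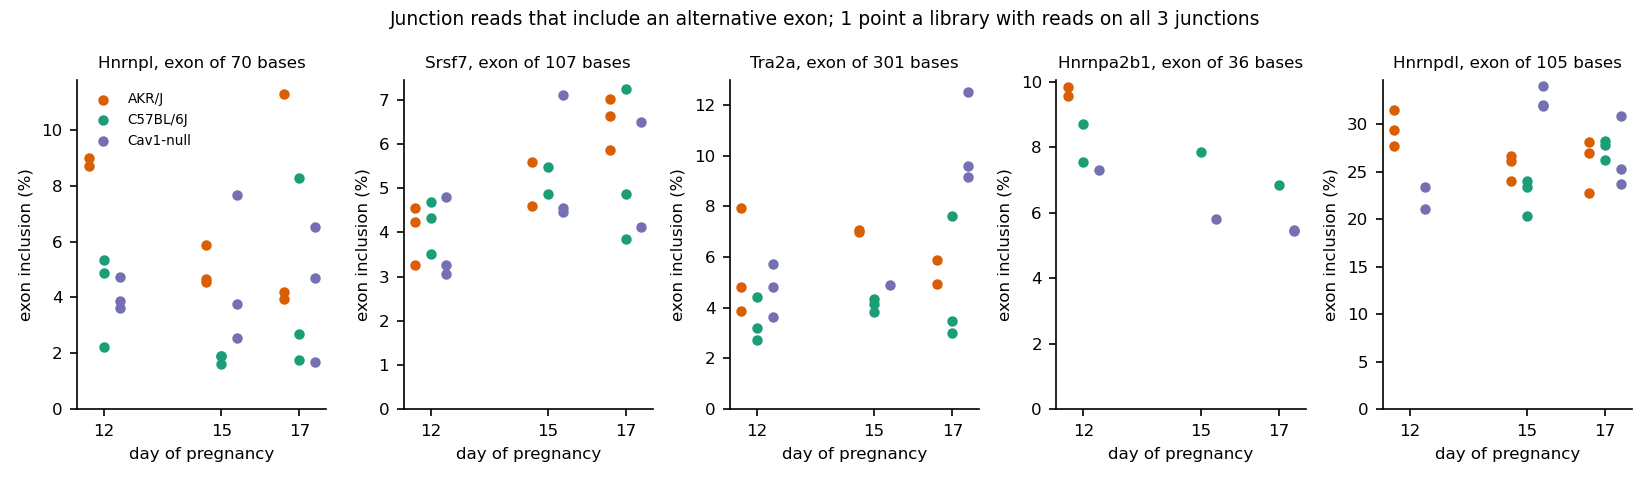
Percentage of junction reads that include an alternative exon of Hnrnpl, Srsf7, Tra2a, Hnrnpa2b1 and Hnrnpdl by day; each point is a library with reads on both inclusion junctions and on the skipping junction, and colours mark strains. The points of Srsf7 use the junctions of its 107-base form, 1 of which is shared with the longer form. Tra2a stands at 9.15% to 12.5% in Cav1-null d17, and the points of Hnrnpa2b1 lie between 5.45% and 9.83%.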

How the data were processed

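RNA of 27 fetal brains was read as poly-A libraries. Per the labels and methods, the authors used FastQC, cutadapt and fastp, mapped reads to GRCm39 with STAR, and deposited whole read counts per gene and per splice junction, without normalization. The junction table left out junctions with multi-mapped reads, short overhangs or few reads. The counting tool, the strand setting and the handling of reads with several matches are not given in the sources used here, so reads of genes that overlap on opposite strands could not be told apart. Near-identical copies of members (pseudogenes) make their counts uncertain.

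Strain and day in the labels set the groups. Gene counts were fitted in R 4.3.3 with edgeR 4.0.16 (filterByExpr, TMM, quasi-likelihood test) on 6 libraries per comparison, or 12 for interactions, with calls where p, adjusted by Benjamini-Hochberg over all genes tested, was under 0.05. Levels are TMM-scaled CPM, and the SE was derived as the size of the log2 fold change divided by the root of the F statistic. Junctions were tested with diffSpliceDGE after counting each junction once per gene. Scripts were tested on simulated data. No replicate pair agreed within sampling noise (chi-square per gene 5.53 to 340 over 27 pairs).

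Every member may be named. Values of every library were given for members called in at least 2 day comparisons, up to 4 with the largest mean rise and 4 with the largest mean fall, and the other lists by their largest called rise and fall. Members and lists were chosen with earlier results of these data known. Alternatives were DESeq2 1.42.0, no filter on low counts, RLE size factors, 1 model of all 27 libraries, a replicate block, each library left out, 14 erythroid genes left out, and at least 20 reads per library for junctions. The offset for GC content and length (splines with 5 degrees of freedom in genes with log2 CPM of at least 3) was chosen after seeing the data. Amino acid sequences were not used here.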

Additional observations from a re-analysis of the deposited data

Results flagged for a closer look

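Rows of pseudogenes whose symbols extend those of members were outside the comparisons, and 3 of them had more reads in a library than the limit of 3 that a count of 0 allows. The highest read count was 18 for Srsf3-ps, with reads in 23 of the 27 libraries. It was 7 for Hnrnpa1l2-ps2, with reads in 22 libraries, and 5 for Hnrnpa1l2-ps, with reads in 18 libraries. Of the parent genes, Srsf3 had at least 8722 reads and Hnrnpa1 at least 24781 reads in every library.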

How the results depend on the processing

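Of the called log2 fold changes between days of 5 named members, 0 changed sign under the alternatives. Counts have no sign, so a reversal was not defined for them. Among the strain differences, the offset for GC content and length turned 5 calls of Cav1-null d15 from higher to lower (Hnrnph1, Srsf6, Srsf5, Tra2b and Hnrnpc). Of 154 counts of members or junctions under other settings, 122 were within 1.5 times of the reported count, and of 190 log2 fold changes of Srsf12, Hnrnpa0, Hnrnpf, Hnrnpc and Hnrnpab, 170 stayed on the same side of the threshold. The cause of the changes was not tested. With DESeq2, lower members numbered 9 in the AKR/J early phase and 16 in the C57BL/6J late phase, 3 members differed in Cav1-null d12, and the Cav1-null interactions had 1 (early) and 4 (late). With no filter on low counts, AKR/J d17, Cav1-null d12 and both Cav1-null interactions had 1 each. With 1 model of all 27 libraries, lower members numbered 13 in the AKR/J early phase, 21 in the C57BL/6J late phase and 7 (with 0 higher) in the Cav1-null late phase, the members differing from C57BL/6J were 14, 9 and 1 for AKR/J and 4 and 17 for Cav1-null d12 and d15, and the junctions were 2 (AKR/J early), 4 (C57BL/6J early), 2 (C57BL/6J late) and 2 (Cav1-null late). With the offset for GC content and length, the AKR/J early phase had 2 higher and 9 lower members, the C57BL/6J late phase 14 lower, and AKR/J d15 11 in all. With at least 20 reads in every library, 2 junctions were called in the AKR/J early phase and 0 in that of C57BL/6J.

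Replicate numbers did not pair the samples: deviations of same-numbered libraries correlated at -0.23 to 0.18, and in 0 of 12 comparisons was every pair over 0.1. With the replicate block, C57BL/6J had 0 higher, 0 lower and 0 junctions in the early phase and 2 lower in the late phase. The other counts under the replicate block were within 1.5 times, with 3 and 13 lower members for AKR/J and 15 and 22 for Cav1-null mice, 9 and 16 differing members for AKR/J d12 and d15, and 27 for Cav1-null d15.

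With each library left out in turn, lower members ranged from 0 to 17 and 6 to 20 in the early and late phases of AKR/J, 0 to 18 and 0 to 17 in C57BL/6J, and 7 to 26 and 20 to 23 in Cav1-null mice. Higher members ranged from 1 to 3 in the AKR/J early phase and from 0 to 3 and 0 to 1 in C57BL/6J. Differing members ranged from 0 to 10, 15 to 22 and 0 to 13 for AKR/J on d12, d15 and d17, and from 0 to 1, 26 to 28 and 0 to 7 for Cav1-null mice. Interactions ranged from 0 to 1 and 0 to 1 for AKR/J and 0 to 5 and 0 to 12 for Cav1-null mice, and junctions from 0 to 5 and 0 to 1 (AKR/J), 1 to 6 and 0 to 4 (C57BL/6J) and 0 to 2 and 0 to 2 (Cav1-null). With 3 libraries per group, 1 library often decided a call. Of 217 member junctions, 58 had reads in all libraries, and whether depth or the removal of reads gave the zeros was not tested.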

Other observations

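Other alternative exons of the members were described without a test. The 171-base coding exon of Hnrnpdl was included in 96% to 99% of transcripts over 24 libraries. A coding exon of Tra2a at chr6:49240434-49240514, which shares its skipping junction with the decay exon, was included in 1.77%, 1.62% and 5.13% on d12, d15 and d17 in AKR/J, in 3.96%, 3.93% and 7.3% in C57BL/6J and in 3.32%, 7.54% and 10.1% in Cav1-null mice (group means of 2 or 3 libraries). The d17 libraries lay above those of both other days in each strain (4.47% to 5.83%, 5.82% to 9.14% and 9.43% to 11.4%).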
